A study of Homo sapiens with 4 samples.

Results

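Proteasome subunit genes were taken from the deposited expression table of MHCC-97H cells as the protein-coding rows whose symbol begins with PSM, followed by a letter from A to G and a number. The rule found 49 of 33478 rows, which carry 47 symbols. PSMG1 was not analysed here. MHCC-97H is a human hepatocellular carcinoma line selected for high metastatic capacity, and every library came from this line. Of the 4 libraries, 2 came from cells with a control short hairpin RNA (shRNA; SH-NC in the titles) and 2 from cells with an shRNA against UCK2, a pyrimidine salvage kinase (SH-UCK2-B). The letter B in these titles is unexplained, and where it stands for 1 hairpin, off-target effects and UCK2 targeting cannot be told apart. Separate cultures within a group are not stated in the labels, so each p-value covers only the spread between these libraries, which may be technical.

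The proteasome is the cell's main machine for degrading proteins tagged with ubiquitin. Its core is a barrel of alpha rings, which gate the entrance, around beta rings, which hold the proteolytic sites. The cap binds ubiquitin chains, removes them, unfolds the substrate with a ring of ATPases and feeds it into the core. In cells exposed to interferon, PSMB8, PSMB9 and PSMB10 replace the catalytic subunits PSMB5, PSMB6 and PSMB7 in newly built cores, which changes the peptides offered to T cells. Proliferating tumour cells, hepatoma cells among them, depend on the proteasome to turn over cell cycle regulators and misfolded proteins.

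Levels are given in TPM, an abundance corrected for gene length and scaled to a fixed total per library. Across the series UCK2 itself measured 136 TPM in control replicate 1 and 93.6 TPM in control replicate 2, beside 120.5 and 67.8 TPM for replicates 1 and 2 with the UCK2 shRNA. The groups overlap, with a log2 difference of -0.31 ± 0.30 (SE; -0.075 after the scaling described below), so directions rest on the library titles alone. The descriptions of 2 libraries name another line number or gene number than their titles, and the extraction text speaks of retinas. Of 14 retina markers 1 averaged at least 1 TPM, and their sum lay between 3.58 and 5.63 TPM. The hepatocyte and hepatoma list had 10 of 12 genes above that level and summed to between 2371 and 4189 TPM, mostly from KRT8 and KRT18. Its most abundant plasma protein was APOH at 46.5 to 67.9 TPM, ALB lay at 18.6 to 29.5 TPM, and APOA2 was listed at 0 in both controls. Leukocytes carry abundant immunoproteasome subunits. The leukocyte list summed to between 5.79 and 7.64 TPM, with 1 of 10 markers at 1 TPM or more (ITGAM) and CD3E and MS4A1 listed at 0 in all 4 libraries. The fibroblast list had 1 of 7 markers at 1 TPM or more, LUM, and summed to between 7.32 and 29.2 TPM.

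Of the 49 rows, 45 averaged at least 1 TPM over the 4 libraries and were compared, 1 for each of 45 symbols. PSMA8, the alpha subunit of germ cells, was listed at 0 in every library. PSMB11, the beta subunit of the thymic epithelium, was listed at 0 in 3 libraries and at 0.021 TPM in UCK2 shRNA replicate 1. The other 2 rows repeat the symbols PSMA1 and PSMA2 over the loci of COPB1 and C7orf25, with at most 0.426 and 2.47 TPM in any library. The table lists genes on the opposite strand that overlap 20 of the 45, and GENCODE names 30 pseudogenes after 10 of them, 13 of these after PSMC1. Counting by strand is not recorded in the labels or headers, so the values of these genes may include reads of a partner or copy.

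**Figure D1:**
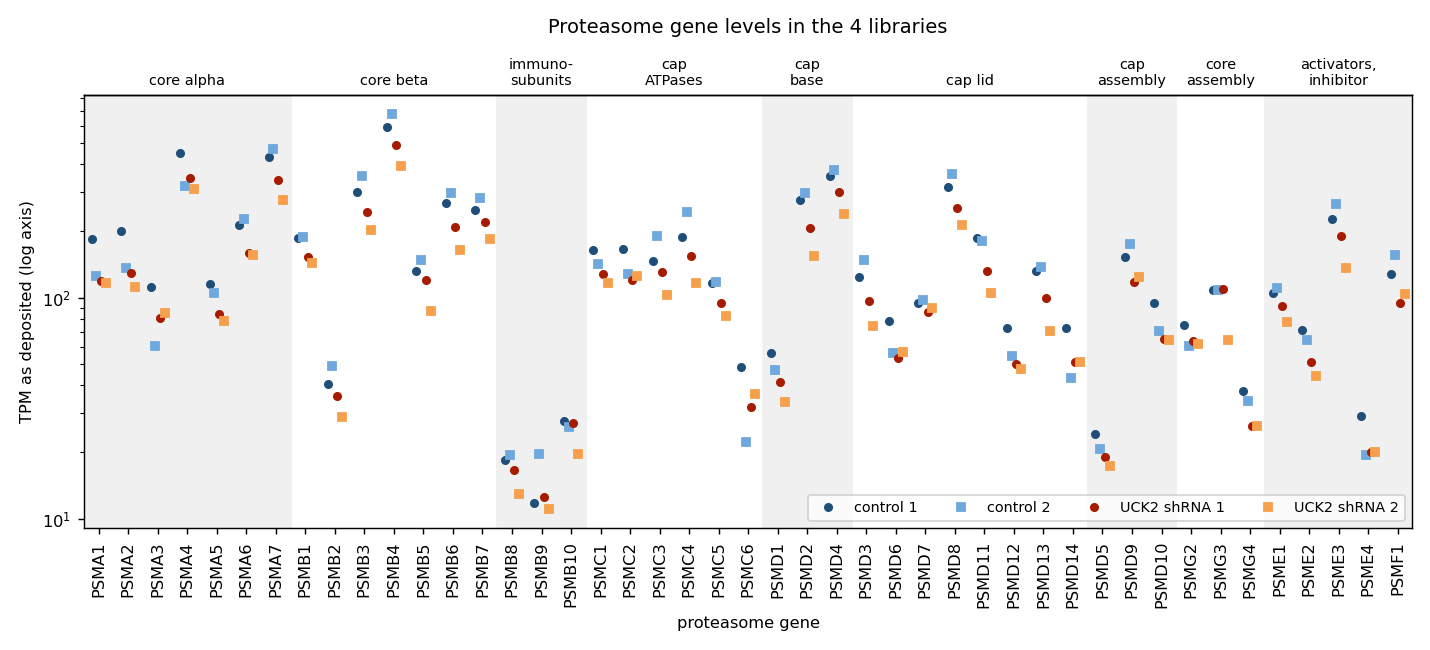
TPM as deposited, on a log axis, of the 45 proteasome genes in the 4 libraries (blue, controls; red and orange, UCK2 shRNA; circles, replicate 1; squares, replicate 2), ordered by role. PSMB4 is the highest gene and the 3 immunoproteasome subunits are the lowest group; UCK2 shRNA replicate 2 is the lowest library for 34 of 45 genes.

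No proteasome gene passed the test between groups. These are bulk samples, in which fewer expressing cells and less RNA per cell cannot be told apart. With limma on log2(TPM + 1), 0 of 45 proteasome genes had an adjusted p under 0.05, against 0 of 14038 genes tested (0%). At an unadjusted p under 0.05, 21 of 45 were lower and 0 higher in the UCK2 shRNA libraries, where 14% of all genes were lower and 1.38% higher. Values below 0 were found for 43 of 45, beside 74.7% of all genes. The groups did not overlap for 35 of 45, all lower, against 44.4% of all genes lower and 5.46% higher. Every proteasome gene compared averaged at least 13.7 TPM, and these shares were larger among abundant genes. Of the 7562 genes averaging at least 10 TPM, 1849 were lower and 10 higher at an unadjusted p under 0.05. In that set 6627 lay below 0, and the groups did not overlap for 4686 lower and 61 higher genes. The whole table was shifted too: TPM over the rows used summed to between 643063 and 850534, with lower sums in the UCK2 shRNA libraries. The median log2 difference of the proteasome genes was -0.43, beside -0.22 for all genes tested and -0.30 for the 7562 genes averaging at least 10 TPM.

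Each library was therefore also divided by a median-ratio factor computed from all genes tested, which brought the median of all genes to -0.0062 and that of genes averaging at least 10 TPM to -0.072. The median of the proteasome genes was then -0.19, with 37 of 45 below 0 against 50.8% of all genes. Of the 7562 genes averaging at least 10 TPM, 4785 were below 0 after scaling. After this scaling limma called 0 of 45 proteasome genes (0.0641% of all genes, all higher) and 0 of 45 at an unadjusted p under 0.05 (1.42% of all genes lower, 3.97% higher). The groups then did not overlap for 10 lower genes and 1 higher gene of 45, beside 15.5% lower and 16% higher of all genes. Among the 7562 genes averaging at least 10 TPM they did not overlap for 1534 lower and 724 higher genes. Rescaling every library to the same total gave a proteasome median of -0.064 beside 0.11 for all genes, and quantile normalization gave -0.061 beside -0.029.

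The core alpha ring, which gates the barrel, had a median log2 difference of -0.43 (scaled -0.19), with 6 of 7 genes below 0 as deposited and 5 of 7 after scaling. PSMA7, the most abundant alpha subunit, measured 432 and 470.0 TPM in the control libraries and 339 and 276 TPM in the UCK2 shRNA libraries. Its groups do not overlap, and its log2 difference was -0.56 ± 0.16 (SE, limma adjusted p = 0.294; scaled -0.32). PSMA3, the least abundant, measured 112 and 60.3 TPM against 81.1 and 85.0 TPM. Control replicates 1 and 2 of PSMA3 lie on either side of the UCK2 shRNA libraries, and its log2 difference was 0.016 ± 0.28 (adjusted p = 0.986; scaled 0.25). The other 5 alpha subunits, PSMA1, PSMA2, PSMA4, PSMA5 and PSMA6, had log2 differences from -0.48 (PSMA6) to -0.21 (PSMA4), and that of PSMA4 was 0.028 after scaling.

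The constitutive beta ring had a median log2 difference of -0.46 (scaled -0.22), with all 7 genes below 0 on both scales, though PSMB1 lay above 0 after rescaling to a fixed total (0.028) or quantile normalization (0.091) and PSMB7 after the latter (0.013). PSMB4, a structural subunit with no proteolytic site of its own, was the most abundant proteasome gene at 591 and 675 TPM in the control libraries and 490.3 and 395 TPM in the UCK2 shRNA libraries. Its log2 difference was -0.52 ± 0.17 (SE, adjusted p = 0.294; scaled -0.28). PSMB2, also structural, was the least abundant of the ring at 40.6 and 48.8 TPM against 35.9 and 28.9 TPM. The means over all 4 libraries of these 2 genes, whose products stand in equal number in the core, thus differed 13.9-fold in TPM. This fold depends on the gene lengths used for TPM, which were not checked. The GENCODE 29 transcripts taken for GC content have 964 bases for PSMB4 and 4217 for PSMB2. The log2 ratio of PSMB4 to PSMB2 was steady across libraries, at 3.86 and 3.79 in the controls and 3.77 and 3.77 in the UCK2 shRNA libraries. PSMB1 measured 185 and 188 TPM against 152 and 143 TPM, with the log2 difference nearest 0 in the ring (-0.34, scaled -0.097), and PSMB3 had -0.55 (scaled -0.31).

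The catalytic subunits of the constitutive core were each higher in both controls than in both UCK2 shRNA libraries as deposited, as 44.4% of all genes were. So were 4686 of the 7562 genes averaging at least 10 TPM. After scaling the groups of PSMB6 were barely apart, with 226.8 in control replicate 1 beside 226.4 in UCK2 shRNA replicate 1. Those of PSMB5 and PSMB7 overlapped. PSMB5, which cuts after hydrophobic residues, measured 131 and 148 TPM in the control libraries and 120.3 and 86.8 TPM in the UCK2 shRNA libraries. Its log2 difference was -0.44 ± 0.20 (SE, adjusted p = 0.338; scaled -0.20). PSMB6, which cuts after acidic residues, measured 269 and 296 TPM against 208 and 163 TPM. The log2 difference of PSMB6 was -0.61 ± 0.17 (adjusted p = 0.294; scaled -0.37). PSMB7, which cuts after basic residues, measured 250.1 and 283 TPM against 220.4 and 184 TPM, with -0.40 ± 0.16 (adjusted p = 0.319; scaled -0.16).

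The immunoproteasome subunits were expressed at a low level without any labelled interferon treatment. PSMB8, the counterpart of PSMB5, measured 18.4 and 19.3 TPM in the control libraries and 16.5 and 12.9 TPM in the UCK2 shRNA libraries. Its log2 difference was -0.35 ± 0.22 (SE, adjusted p = 0.464; scaled -0.12), with no overlap of the groups as deposited. PSMB9, the counterpart of PSMB6, measured 11.8 and 19.5 TPM against 12.5 and 11.1 TPM, so that control replicate 2 alone stood high (-0.35 ± 0.28, adjusted p = 0.575; scaled -0.12). PSMB10, the counterpart of PSMB7, measured 27.7 and 26.0 TPM against 27.1 and 19.6 TPM, so that UCK2 shRNA replicate 2 alone stood low (-0.21 ± 0.22, adjusted p = 0.676; scaled 0.021). PSMB8 (chromosome 6, 32840717 to 32844703, minus strand of hg38) and PSMB9 (32844136 to 32859585, plus strand) overlap each other, and PSMB9 also overlaps TAP1, the peptide transporter gene, at 8.43 to 10.6 TPM. Together the 3 subunits made up 0.806% and 0.898% of the summed TPM of the 45 genes in the controls, and 0.990% and 0.902% in the UCK2 shRNA libraries.

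Within a library the ratio of an immunoproteasome subunit to its constitutive counterpart does not change when all values are divided by 1 factor. Quantile normalization or removal of a GC trend can change it. PSMB5 was 7.14-fold and 7.64-fold above PSMB8 in the controls and 7.28-fold and 6.72-fold in the UCK2 shRNA libraries. PSMB6 was 22.8-fold and 15.2-fold above PSMB9 in the controls, and 16.7-fold and 14.7-fold in the UCK2 shRNA libraries. PSMB7 was 9.03-fold and 10.9-fold above PSMB10, and 8.13-fold and 9.42-fold. The groups overlap for all 3 ratios. The log2 ratio of PSMB8 to PSMB5 was 0.077 higher in the UCK2 shRNA libraries (pooled SD 0.076), that of PSMB9 to PSMB6 0.25 higher (pooled SD 0.31) and that of PSMB10 to PSMB7 0.18 higher (pooled SD 0.17), so none stood clear of the spread between libraries. Without control replicate 1 the difference of PSMB9 to PSMB6 was -0.046.

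Summed over the 3 pairs, the immunoproteasome share of the TPM of these 6 catalytic subunits was 8.18% and 8.19% in the controls, and 9.28% and 9.11% in the UCK2 shRNA libraries. The groups do not overlap, and the difference of 1.01 percentage points compares with a pooled SD of 0.0842. That SD does not show the spread of the single pairs, which moved in opposite directions within the controls. From control replicate 1 to 2 the share of PSMB9 in its pair rose from 4.21% to 6.18%. Over the same step that of PSMB8 fell from 12.3% to 11.6% and that of PSMB10 from 9.97% to 8.41%. An exact permutation test of 2 libraries against 2 cannot give a two-sided p below 0.333, so no p is given for this share. In each of the 3 pairs taken alone the groups overlapped.

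**Figure D2:**
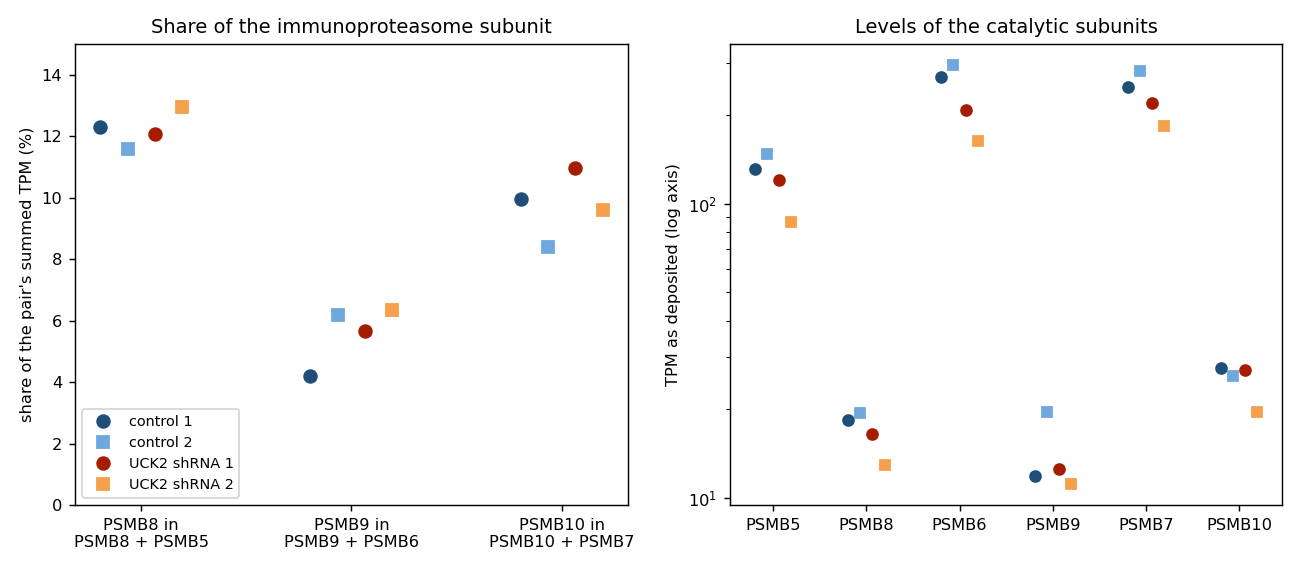
Left, TPM of each immunoproteasome subunit as a percentage of the sum with its constitutive counterpart in the 4 libraries; right, TPM of the 6 subunits on a log axis (colours and shapes mark the library). The share lies between 11.6% and 12.9% for PSMB8, 4.21% and 6.36% for PSMB9 and 8.41% and 10.96% for PSMB10, and the groups overlap in every pair.

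Interferon acts on these genes through a response element, and sequence near the start sites was read for it. The RefSeq promoter table (GRCh38.p14; 250 bases before to 50 after each start) held 39 of the 45 genes, without PSMA7, PSMB1, PSMB6, PSMB7, PSMD4 and PSMG3. The core of the interferon-stimulated response element, GAAA and GAAA with any 2 bases between them, was found on either strand in the promoters of 7 of 39 (17.9%), beside 4.38% of 27305 genes in the table. Those 27305 genes were not matched to the 39 for level or base composition. The 7 are PSMB8, PSMB10, PSME1, PSME2, PSMG4, PSMA4 and PSMB4, and the first 5 carry the same letters, GAAAGCGAAA. PSMB9 and PSMB5 had no match in this window. The windows of PSMB8, PSMB10, PSME1 and PSME2 are shown because interferon is known to induce these genes, with the motif in capitals and 10 bases on each side, 5′ to 3′ on the strand that holds the motif.
PSMB8 (chr6:32844032-32844061, plus strand): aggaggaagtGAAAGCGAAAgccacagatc
PSMB10 (chr16:67936852-67936881, minus strand): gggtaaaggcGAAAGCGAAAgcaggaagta
PSME1 (chr14:24136189-24136218, minus strand): accgcgaaggGAAAGCGAAAgcggtagggc
PSME2 (chr14:24146619-24146648, minus strand): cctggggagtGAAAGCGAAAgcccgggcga
A match describes these letters and shows no binding.

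The activators PSME1 and PSME2, which form a ring that opens the core and are induced by interferon with the immunoproteasome, were each more abundant than PSMB8 in every library. PSME1 measured 105 and 111 TPM in the control libraries and 91.2 and 77.2 TPM in the UCK2 shRNA libraries, a difference of -0.36 ± 0.16 on the log2 scale (SE, adjusted p = 0.349; scaled -0.12). PSME2 measured 71.0 and 64.2 TPM against 51.3 and 44.2 TPM, with -0.50 ± 0.17 (adjusted p = 0.294; scaled -0.26), and its groups did not overlap on either scale. The log2 ratio of PSME1 to PSME2 was 0.56 and 0.79 in the controls and 0.83 and 0.81 in the UCK2 shRNA libraries. PSME3, the nuclear activator that works without ubiquitin, was the most abundant of the class at 228 and 265 TPM in the controls, against 190.0 and 135 TPM. The log2 difference of PSME3, -0.61 ± 0.20 (adjusted p = 0.294; scaled -0.37), was the lowest of the class. PSME4, a large nuclear activator, measured 28.95 and 19.4 TPM against 20.1 and 20.0 TPM, so that control replicate 1 alone stood high (-0.23 ± 0.24, adjusted p = 0.672; scaled 0.00023). PSMF1, an inhibitor of the core in vitro, measured 128 and 157 TPM against 94.8 and 104 TPM (-0.51 ± 0.17, adjusted p = 0.294; scaled -0.27).

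The cap ATPases, the ring that unfolds substrates, had a median log2 difference of -0.36 (scaled -0.12), with 5 of 6 genes below 0 on both scales. PSMC4, the most abundant, measured 188 and 245 TPM in the control libraries and 155 and 116 TPM in the UCK2 shRNA libraries. Its log2 difference was -0.68 ± 0.21 (SE, adjusted p = 0.294; scaled -0.44). PSMC6, the least abundant, measured 48.7 and 22.1 TPM against 31.9 and 36.7 TPM, so that the controls lie on both sides of the other group (0.055 ± 0.34, adjusted p = 0.957; scaled 0.29). PSMC1, PSMC2, PSMC3 and PSMC5 had log2 differences from -0.52 (PSMC3) to -0.25 (PSMC2). PSMC3 and PSMC6, partners in 1 ring, showed opposite orders within the controls, and their log2 ratio was 1.58 and 3.09 in control replicates 1 and 2, beside 2.04 and 1.48 in the UCK2 shRNA libraries.

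The remaining base of the cap had a median log2 difference of -0.45 (scaled -0.21). PSMD4, a ubiquitin receptor and the most abundant cap gene, measured 356 and 376 TPM in the control libraries and 301 and 239 TPM in the UCK2 shRNA libraries, with -0.45 ± 0.17 (SE, adjusted p = 0.297; scaled -0.21). PSMD2, the docking subunit for ubiquitin shuttle proteins, measured 276 and 296 TPM against 207 and 154 TPM, with -0.67 ± 0.18 (adjusted p = 0.294; scaled -0.43), and its groups did not overlap on either scale. PSMD1, the scaffold that carries a further ubiquitin receptor, was the least abundant base subunit at 56.0 and 46.8 TPM against 41.5 and 33.7 TPM (-0.44 ± 0.19, adjusted p = 0.335; scaled -0.21). The groups of PSMD1 also did not overlap on either scale. After scaling they were barely apart, with 46.7 in control replicate 2 beside 45.2 in UCK2 shRNA replicate 1.

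The lid of the cap, which removes ubiquitin chains, had a median log2 difference of -0.45 (scaled -0.22), with 8 of 8 genes below 0 as deposited and 6 of 8 after scaling. PSMD13 had the lowest log2 difference of all 45 genes, with levels of 132 and 138 TPM in the control libraries and 99.3 and 70.9 TPM in the UCK2 shRNA libraries. The log2 difference of PSMD13 was -0.68 ± 0.20 (SE, adjusted p = 0.294; scaled -0.44, 95% interval -0.97 to 0.09). PSMD8, the most abundant lid gene, measured 317 and 362 TPM against 255 and 212 TPM (-0.54 ± 0.17, adjusted p = 0.294; scaled -0.30). PSMD14, the deubiquitinase of the lid, was its least abundant gene at 73.1 and 43.3 TPM against 51.1 and 51.2 TPM. The values of PSMD14 in the controls lie on both sides of the UCK2 shRNA libraries, and its log2 difference was -0.14 ± 0.25 (adjusted p = 0.833; scaled 0.10). PSMD7, the inactive partner of PSMD14, measured 94.0 and 97.03 TPM against 85.8 and 89.3 TPM, the value nearest 0 in the lid (-0.12 ± 0.15, adjusted p = 0.724; scaled 0.11). The other lid genes, PSMD3, PSMD6, PSMD11 and PSMD12, had log2 differences from -0.67 (PSMD3) to -0.27 (PSMD6).

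Assembly chaperones bind intermediates and leave the finished particle. Among those of the cap, PSMD9 measured 152 and 175 TPM in the control libraries and 117 and 124 TPM in the UCK2 shRNA libraries (-0.43 ± 0.16 SE, adjusted p = 0.294; scaled -0.19). PSMD5 measured 24.2 and 20.7 TPM against 19.0 and 17.2 TPM (-0.30 ± 0.20, adjusted p = 0.500; scaled -0.068), and its antisense neighbour PSMD5-AS1 stood at a like mean level, 18.7 TPM beside 20.3 TPM. PSMD10, also known as the liver oncoprotein gankyrin, had -0.34 ± 0.19 (scaled -0.098). All 3 chaperones were lower in both UCK2 shRNA libraries than in both controls as deposited (44.4% of all genes, and 4686 of the 7562 averaging at least 10 TPM). After scaling the groups overlapped for all 3, and none passed.

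Among the chaperones of the core, PSMG3 measured 109 and 108 TPM in the control libraries and 109 and 64.2 TPM in the UCK2 shRNA libraries, so that UCK2 shRNA replicate 2 alone stood low (-0.37 ± 0.25 SE, adjusted p = 0.499; scaled -0.13). PSMG4, the partner of PSMG3, measured 37.7 and 34.02 TPM against 26.1 and 26.3 TPM (-0.43 ± 0.18, adjusted p = 0.319; scaled -0.20). PSMG2 measured 75.3 and 60.6 TPM against 63.4 and 61.8 TPM (-0.11 ± 0.18, adjusted p = 0.805; scaled 0.13). After scaling PSMG2 was the 1 proteasome gene higher in both UCK2 shRNA libraries than in both controls.

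**Figure D3:**
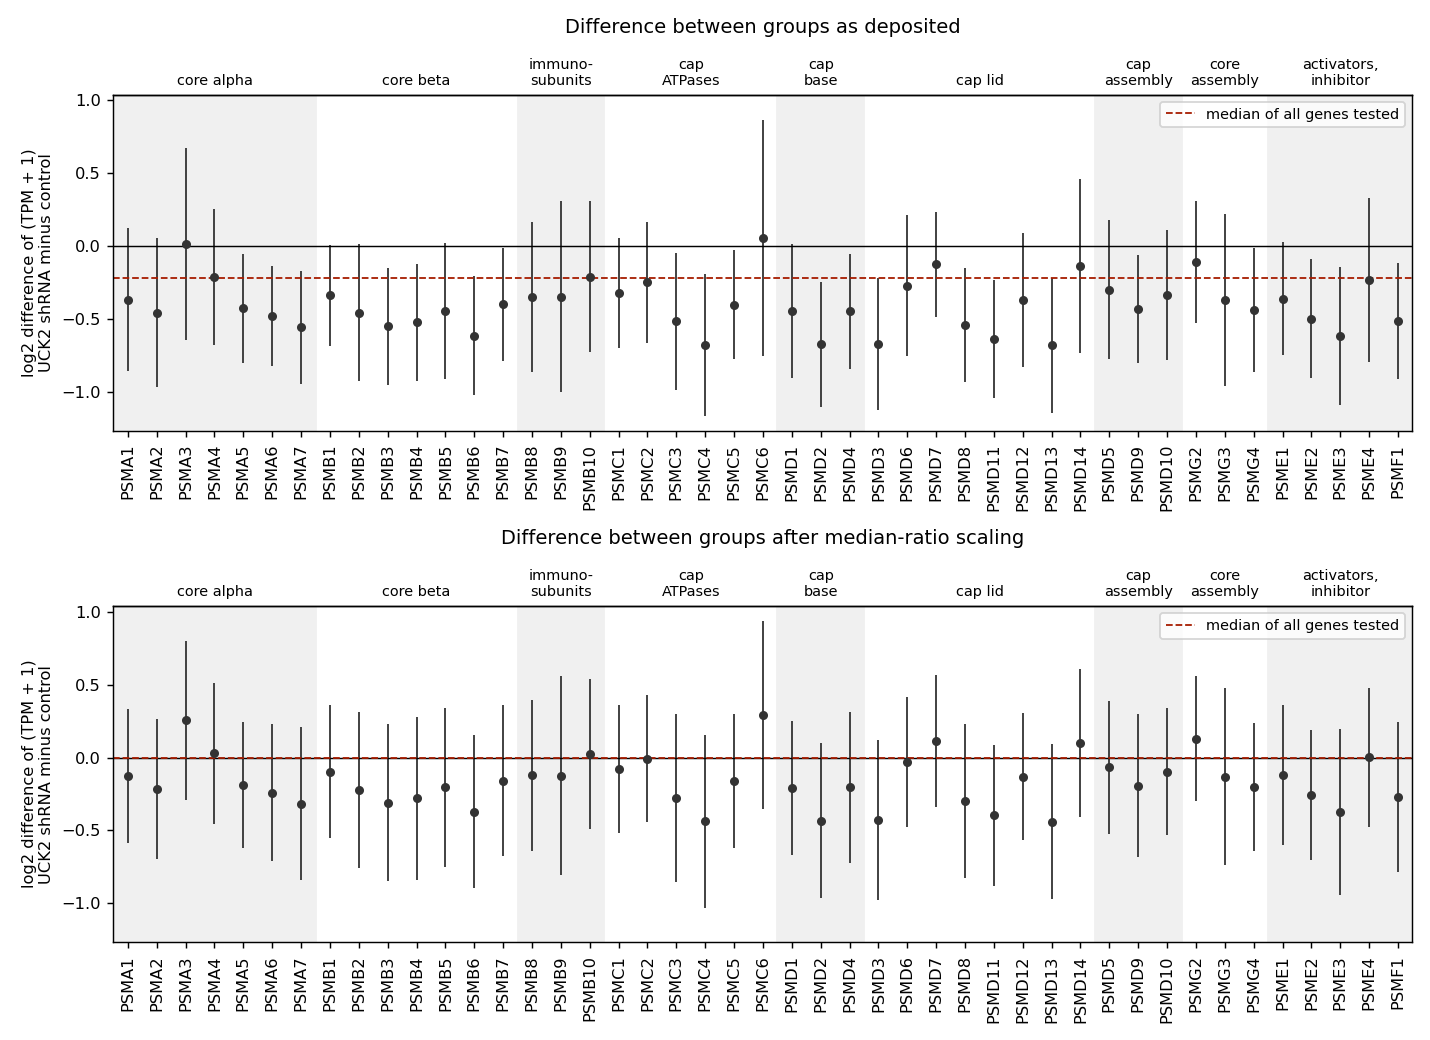
Log2 difference of (TPM + 1), UCK2 shRNA minus control, with 95% intervals from limma for the 45 proteasome genes, as deposited (top) and after median-ratio scaling (bottom); the dashed line is the median of all genes tested. As deposited 43 of 45 points lie below 0, and after scaling 37 do, where every interval spans 0.

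No difference between core, cap, activators and immunoproteasome subunits was tested, and their values are given side by side. The constitutive core had a scaled median of -0.21, the cap of ATPases, base and lid -0.21, the activators with PSMF1 -0.26, and the immunoproteasome subunits -0.12. The sign of 3 smaller medians depended on the scaling: the cap ATPases had 0.0029 after rescaling to a fixed total and 0.032 after quantile normalization, the cap chaperones 0.026 after the first and the core chaperones 0.020 after the second. The shares of the summed proteasome TPM were 23.8% and 19.9% for the alpha ring in control replicates 1 and 2, and 22.2% and 23.5% with the UCK2 shRNA. The beta ring held 24.6% and 27.6%, and 26.0% and 24.9%. For both rings the values of the UCK2 shRNA libraries lie between those of the controls. Cap ATPases took 11.6% to 12.0% and the lid 14.5% to 14.99% in all 4 libraries.

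Libraries of 1 group also differed from each other. The median scaled deviation of the 45 genes from each gene's mean was -0.029 and 0.21 in control replicates 1 and 2, beside 0.024 and -0.19 with the UCK2 shRNA. For all genes averaging at least 10 TPM it was -0.0049 and 0.096 in the controls, and -0.0010 and -0.071 with the UCK2 shRNA. Control replicate 2 was thus the highest and UCK2 shRNA replicate 2 the lowest in both sets. After scaling, 30 of 45 genes were highest in control replicate 2 and 32 of 45 were lowest in UCK2 shRNA replicate 2. Without UCK2 shRNA replicate 2 the median log2 difference as deposited was -0.32, beside -0.23 for all genes. The count lower at an unadjusted p under 0.05 was then 4 of 45 in place of 21, beside 3.01% of all genes in place of 14%. With limma's variance estimated without a trend the count was 7 of 45, beside 7.69% of all genes.

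Within each group the difference between replicates varied with the base composition of the transcripts. Over the 45 genes, the log2 difference of control replicate 2 from replicate 1 had a Pearson r of 0.66 and a Spearman rho of 0.60 with transcript GC content, taken from GENCODE 29. For UCK2 shRNA replicate 2 against replicate 1 the values were -0.64 and -0.65. These are descriptions across genes that share the same libraries, and genes are not independent replicates. Over 7546 genes averaging at least 10 TPM the Spearman rho was 0.61 and -0.32. PSMC6 (GC 36.8%) and PSMA3 (GC 40.7%) were the genes with the lowest scaled values of control replicate 2 against replicate 1, at -0.87 and -0.64, while PSMB9 (GC 53.9%) and PSMC4 (GC 55.2%) had 0.90 and 0.62.

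The Spearman rho of the difference between group means with GC content was -0.46 over the proteasome genes and -0.52 over the genes averaging at least 10 TPM. In both sets its sign depended on the libraries set against each other. For the proteasome genes, UCK2 shRNA replicate 1 against control replicate 1 had 0.58, while replicate 2 against control replicate 2 had -0.68. UCK2 shRNA replicate 1 against control replicate 2 had -0.50, and replicate 2 against control replicate 1 had -0.25. For the genes averaging at least 10 TPM the values were 0.18, -0.59, -0.59 and -0.20, in the same order. Proteasome genes with a GC content of at least 50% (22) had a scaled median of -0.23 and those under 50% (23) -0.098, beside -0.16 and 0.019 for all genes averaging at least 10 TPM in the same GC ranges. Of these 22 and 23 proteasome genes, 20 and 17 lay below 0 after scaling. In the same ranges 3082 of 3831 and 1698 of 3715 genes averaging at least 10 TPM did. When the GC trend was removed from each library, a step added after seeing the data, the median of the proteasome genes was -0.19, beside -0.011 for all genes and -0.079 for those averaging at least 10 TPM. Of the 45, 40 lay below 0 (51.8% of all genes), 2 were lower at an unadjusted p under 0.05 (PSMD11 and PSMA2, named after their values were seen; 2.16% of all genes), 0 were higher (4.33% of all genes) and 0 passed (0.0072% of all genes). Of the 7546 genes averaging at least 10 TPM, 4991 lay below 0 after this step, and 226 were lower and 128 higher at an unadjusted p under 0.05. The highest value of a proteasome gene was then 0.15 (PSMG2), while PSMC6 had -0.017 (scaled 0.29) and PSMA3 0.089 (scaled 0.25). The part of base composition in these differences was not tested.

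**Figure D4:**
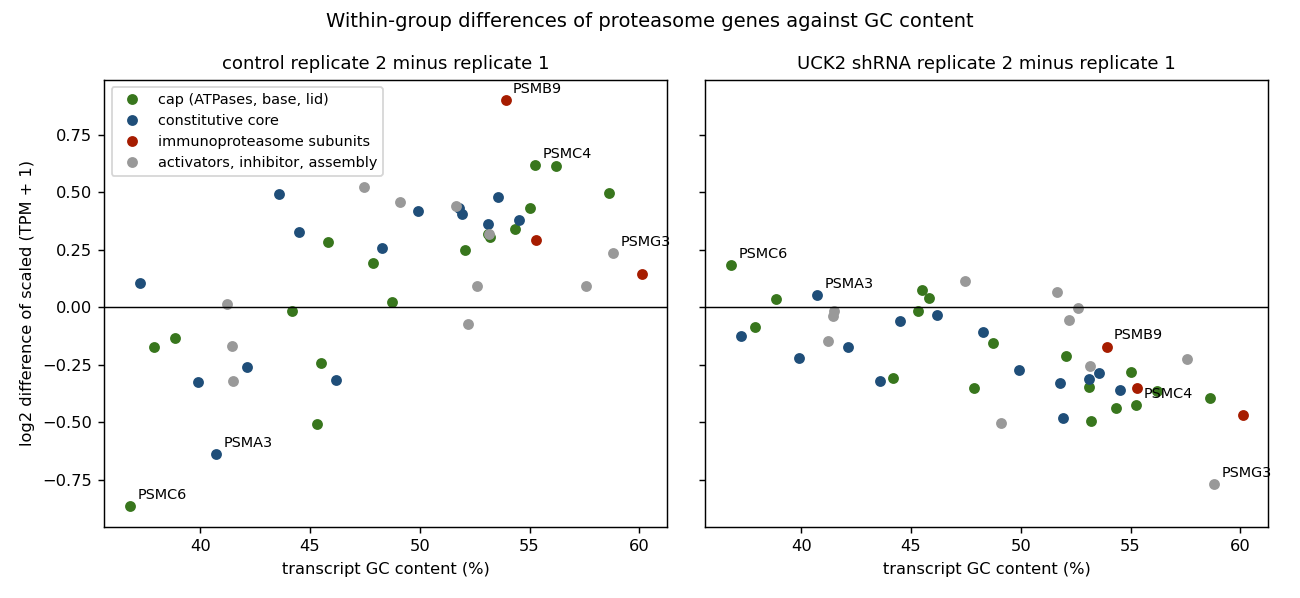
Scaled log2 difference between the replicates of each group (left, control replicate 2 minus 1; right, UCK2 shRNA replicate 2 minus 1) against the GC content of each gene's transcript in percent, for the 45 proteasome genes coloured by role. Points rise with GC content on the left (Spearman rho 0.60) and fall with it on the right (-0.65).

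Other genes of the pathway were read from 5 lists, and none of their members passed with limma as deposited or after median-ratio scaling. Of 11 further proteasome components, 10 were below 0 as deposited and 9 after scaling (median -0.34, scaled -0.11). SHFM1, the small lid subunit also called SEM1, measured 280 and 202 TPM in the control libraries and 239 and 259 TPM in the UCK2 shRNA libraries (0.064, scaled 0.30). ADRM1, the ubiquitin receptor held by PSMD1, measured 154 and 182 TPM against 115 and 97.5 TPM (-0.66, scaled -0.42). ZFAND5, a proteasome activator, measured 172 and 136 TPM against 124 and 131 TPM (-0.26, scaled -0.019).

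Of 8 genes of transcriptional control, 6 were below 0 as deposited and 5 after scaling. NFE2L1, the factor that raises proteasome genes when proteasomes are inhibited, measured 151 and 141 TPM in the control libraries and 105 and 135 TPM in the UCK2 shRNA libraries (-0.29, scaled -0.055). MAFG and MAFK, its small MAF partners, had -0.43 and -0.44 (scaled -0.19 and -0.20). NFE2L1 and NFE2L2 bind antioxidant response elements, and the core TGACNNNGC was present on either strand in the promoters of 14 of 39 proteasome genes (35.9%), beside 16.1% of 27305 genes. The 27305 genes were not matched to the 39 for level or base composition, and a match shows no binding. A window from each of the 4 main classes is shown with the motif in capitals.
PSMA4, alpha ring (chr15:78540650-78540678, plus strand): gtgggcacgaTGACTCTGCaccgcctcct
PSMB3, beta ring (chr17:38752627-38752655, plus strand): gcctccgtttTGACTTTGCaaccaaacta
PSMC5, cap ATPase (chr17:63827654-63827682, minus strand): agggcggcgcTGACACAGCagatccggtc
PSMD12, lid (chr17:67366724-67366752, minus strand): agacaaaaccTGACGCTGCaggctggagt
These 4 genes had log2 differences of -0.21, -0.55, -0.40 and -0.37, and scaled values of 0.028, -0.31, -0.16 and -0.13.

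Of 6 ubiquitin and E1 genes, 5 were below 0 as deposited and 4 after scaling. UBB, a polyubiquitin gene, measured 1525 and 1710.2 TPM in the control libraries and 1263 and 1081 TPM in the UCK2 shRNA libraries (-0.47, scaled -0.23). Of 11 shuttle factors and segregase genes, 11 were below 0 as deposited and 9 after scaling. VCP, the segregase that extracts ubiquitinated proteins, measured 225 and 237 TPM against 191 and 151 TPM (-0.44, scaled -0.20). Its cofactors NPLOC4 and UBXN1 had -0.28 and -0.36 (scaled -0.044 and -0.12).

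Of 11 interferon and peptide-loading genes compared, 7 were below 0 as deposited and 5 after scaling, with medians of -0.17 and 0.047. B2M, the light chain of MHC class I, measured 1592 and 1467 TPM in the control libraries and 1416 and 1528 TPM in the UCK2 shRNA libraries (-0.055, scaled 0.19). TAPBP, the peptide-loading chaperone tapasin, had -0.39 (scaled -0.16).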

How the data were processed

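RNA-seq libraries of MHCC-97H cells, 2 with a control shRNA and 2 with an shRNA against UCK2, were read from 1 table of TPM values per gene, as deposited by the authors. Libraries were prepared with a TruSeq kit, per the labels' protocols. TopHat2 2.0.14, HTSeq, DESeq, edgeR and the build hg38 are named per the submitters' processing notes, with no role given. TPM keeps no read depth, so no counting interval is given. The rows used leave 14.9% to 35.7% of the fixed TPM total of a library outside.

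Values were compared as log2(TPM + 1) with limma 3.58.1 (R 4.3.3; linear model, eBayes with trend) over the 14038 genes averaging at least 1 TPM, with Benjamini-Hochberg adjustment over all of them and a threshold of 0.05. Fold changes on this scale understate those of low genes. Median-ratio factors for the scaled values were 1.19, 1, 0.918 and 0.928. GC content was known for 13883 genes and removed with a lowess curve (span 0.3) in an added alternative. The main fit, without scaling, GC adjustment or a block, was tested on simulated data with independent noise. The fits with those steps were not simulated. Alternatives covered scaling, pseudocount, filter, eBayes options, a block for the replicate number and 1 library left out at a time. Genes were named by rule: the catalytic subunits, activators and inhibitor, in each other class the genes with the highest and lowest mean TPM and log2 difference, genes not kept, any gene that passed, and in each pathway list the 3 with the highest mean TPM. Some genes that this rule takes are not reported here. PSMC3, PSMD10, genes with printed windows and class extremes given as ranges were added after their values were seen. The proteasome genes and all lists were chosen with earlier results of these data known. Sequences and positions of motifs are from RefSeq (GRCh38.p14).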

Additional observations from a re-analysis of the deposited data

How the results depend on the processing

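With limma, 0 of 45 proteasome genes passed under every setting run except crossed replicate numbers. Over all genes the count was 0 as deposited, 9 after median-ratio scaling, 8 after quantile normalization, 1 after GC adjustment and 0 to 350 when 1 library was left out (350 without control replicate 1 and 53 without control replicate 2). With the replicate number as a block it was 39 (29 higher, 10 lower), and 121 with the replicate block and scaling. Same-numbered libraries share only a number, their deviations correlating at -0.214. A crossed replicate block, chosen after seeing the data, called 727 genes (91 higher, 636 lower; 5.18% of all genes), among them 12 of the 45 proteasome genes and 5 of the 47 genes of the pathway lists.

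The proteasome median of -0.43 became -0.19 with scaling, with or without the replicate block, -0.064 after rescaling to a fixed total, -0.061 after quantile normalization and -0.19 after GC adjustment. Leaving out 1 library gave -0.50 to -0.32. The immunoproteasome share difference of 1.01 points became 1.13 with a pseudocount of 1 and 1.43 after GC adjustment, and 0.930 to 1.10 when 1 library was left out.

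Signs of named genes turned as follows. Median-ratio scaling, with or without the replicate block, gave B2M 0.19, PSMA4 0.028, PSMB10 0.021, PSMD14 0.10, PSMD7 0.11, PSME4 0.00023 and PSMG2 0.13. A fixed total gave B2M 0.31, NFE2L1 0.069, NPLOC4 0.080, PSMA4 0.15, PSMB1 0.028, PSMB10 0.14, PSMC2 0.12, PSMD10 0.026, PSMD14 0.22, PSMD5 0.052, PSMD6 0.090, PSMD7 0.24, PSME1 0.0039, PSME4 0.12, PSMG2 0.25, UBXN1 0.0026, UCK2 0.049 and ZFAND5 0.11. Quantile normalization gave B2M 0.30, NFE2L1 0.12, NPLOC4 0.12, PSMA4 0.19, PSMB1 0.091, PSMB10 0.045, PSMB7 0.013, PSMC2 0.16, PSMD10 0.021, PSMD14 0.20, PSMD4 0.0015, PSMD6 0.080, PSMD7 0.27, PSME1 0.036, PSME4 0.0084, PSMG2 0.25, PSMG3 0.020, UBXN1 0.040, UCK2 0.059 and ZFAND5 0.15. GC adjustment gave NFE2L1 0.0087, PSMB10 0.14, PSMC6 -0.017, PSMD14 0.038, PSMD7 0.057 and PSMG2 0.15. Leaving out 1 library gave B2M -0.11 to 0.0034, PSMA3 -0.42 to 0.45, PSMA4 -0.46 to 0.038, PSMB10 -0.44 to 0.015, PSMC6 -0.50 to 0.61, PSMD14 -0.51 to 0.24, PSME4 -0.51 to 0.046, PSMG2 -0.26 to 0.046, PSMG3 -0.75 to 0.0080, SHFM1 -0.17 to 0.30 and UCK2 -0.72 to 0.096. Apart from the steps themselves, which use fewer libraries or other scaling, the cause was not tested.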
